A study of Mus musculus with 10 samples.

Results

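The tripartite motif (TRIM) family of ubiquitin ligases was followed in Ly6Chigh monocytes that had been sorted from mouse spleens 5 days after surgery. Of 66 gene symbols made of Trim, a number and at most 1 letter, 42 reached 1 TPM (transcripts per 1e+06 transcripts, a level per transcript length) in at least 3 of the 10 libraries, and these 42 are the members described here, of 12938 genes that passed the same filter and 24421 in the tables. The groups were WT mice after sham surgery (a thoracotomy without ligation, 3 libraries), WT mice after myocardial infarction (MI, the left anterior descending artery ligated for good, 3 libraries) and Foxp3DTR mice after the same MI (4 libraries). All mice were males of 8 to 10 weeks. In Foxp3DTR mice the Foxp3 promoter drives a human receptor for diphtheria toxin (DTX), and injected toxin depletes their Foxp3+ regulatory T-cells (Tregs). The DTX schedule given for Treg ablation is 500 ng per mouse 2 days and 1 day before surgery and 250 ng on day 2 after it, and the depletion it gives is described as partial. The study's text sets Foxp3DTR mice beside WT mice given toxin as well, but the sources used here do not say for each WT library whether the mouse had received it. Between the MI groups genotype and Treg loss come together and cannot be told apart. No sham-operated Foxp3DTR mice were analysed, so Treg loss without infarction is not seen here.

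TRIM proteins carry a RING finger, B-box zinc fingers and a coiled coil, and most act as E3 ligases that place ubiquitin chains on a target chosen by the domain at the other end of the protein. Many are interferon-inducible and set the strength of innate signalling, by ubiquitinating RNA and DNA sensors or their adaptors, by blocking retroviral capsids or by turning the NF-κB pathway off. Others repress transcription, bind microtubules or act in development. In monocytes and macrophages the family is best known as a set of effectors and brakes of the interferon response.

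The interferon-stimulated response element (ISRE), the site bound by STAT and IRF factors at many interferon-inducible genes, is the promoter feature by which many TRIM genes are known, so the elements found are shown first. RefSeq windows of GRCm38.p6, from 250 bases before to 50 after an annotated start, were found for 31 of the 42 members. Both strands were searched for TTTC, any 2 bases and TTTC again, a match present in 3.44% of all 32851 windows. It occurred in the windows of Trim12a, Trim12c, Trim21, Trim26, Trim30a, Trim30d and Trim34a, all of them on chromosome 7 except Trim26 on chromosome 17. Since under 80% of members had a window, no share of the family is given. Each line shows 30 bases of genomic sequence, 5′ to 3′ in the direction of the gene, with the matched letters in capitals.
Trim30a: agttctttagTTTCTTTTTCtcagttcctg
Trim30d: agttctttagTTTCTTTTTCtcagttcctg
Trim12a: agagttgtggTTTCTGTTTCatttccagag
Trim12c: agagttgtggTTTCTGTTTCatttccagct
Trim34a: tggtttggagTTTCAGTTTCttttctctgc
Trim21: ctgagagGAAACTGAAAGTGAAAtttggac
Trim26: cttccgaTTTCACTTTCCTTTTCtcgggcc

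The Trim30a element (chr7:104465210-104465239, minus strand) and the Trim30d element (chr7:104507871-104507900, minus strand) were the same 30 letters at different loci, 36 and 41 bases before the start. The Trim21 stretch (chr7:102565447-102565476, minus strand) and the Trim26 stretch (chr17:36836979-36837008, plus strand) each held 2 overlapping matches, those of Trim21 on the opposite strand of the gene and behind its start. The Trim12a and Trim34a matches also lay behind the start, at bases 11 to 20, and the Trim12c match began 29 bases before it. The whole 250 bases upstream of Trim30a, the most abundant member, are given next (chr7:104465194-104465443, minus strand), with the match in capitals.
Trim30a upstream: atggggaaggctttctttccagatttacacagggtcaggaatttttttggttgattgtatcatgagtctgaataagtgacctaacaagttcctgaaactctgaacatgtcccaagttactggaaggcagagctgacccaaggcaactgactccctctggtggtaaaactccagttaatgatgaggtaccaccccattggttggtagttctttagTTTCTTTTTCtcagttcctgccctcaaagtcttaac

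Of the 7 members with a match, all but Trim26 had a log2 fold change above 0 between Foxp3DTR and WT mice after MI, as had 50.1% of all genes. Trim12a, Trim12c, Trim30a, Trim30d and Trim34a share a locus on chromosome 7 and in part their sequence, so their signs are not separate observations. None of the 7 had a limma adjusted p under 0.05. Without WT MI replicate 2 the values of Trim12a, Trim30a, Trim30d and Trim34a were below 0. Among these 7, the log2 fold change between Foxp3DTR and WT mice after MI ran from -0.20 for Trim26 to 0.62 for Trim21, although without scaling it was above 0 for all 7, Trim26 at 0.04. The gamma-activated site, an element of interferon-gamma-responsive promoters that was searched as TTC, any 3 bases and GAA, occurred in 8.30% of all windows and in those of Trim15, Trim45 and Trim46. A match is a description of these windows and not a bound site.

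The 10 libraries held 3.13 to 8.40 M reads (M, 1e+06), inferred from coverage and FPKM, so that 1 TPM stands for 1.11 to 2.87 reads per kilobase. Levels below are TPM divided by a scaling factor per library (0.856 to 1.14), here called scaled TPM, and log2 fold changes are on the log2(scaled TPM + 1) scale, which understates changes at low levels. Each library was taken as a separate animal, and p-values measure the spread between libraries only. The 6 monocyte markers (Ccr2, Ly6c2, Csf1r, Itgam, Adgre1 and Lyz2) were above 0 in every library, with a summed TPM of 34711 to 45901 (sham), 35107 to 38694 (WT MI) and 23067 to 30956 (Foxp3DTR MI). Lyz2 made up most of these sums, at 30664.5 to 34075 TPM in WT MI and 16746 to 23805 in Foxp3DTR MI libraries. Of the 6 markers, 4 were higher in mean TPM in Foxp3DTR MI than in WT MI libraries. Ly6c2 was among them, at 3667 to 4757 against 1985 to 2689 TPM. After scaling, 3 of the 6 had a log2 fold change above 0 between these groups. Markers of T-cells, NK cells and neutrophils moved with the groups. Their summed TPM in WT MI and in Foxp3DTR MI libraries was 6.47 to 11.01 and 29.96 to 114 for T-cells (8 of 8 markers higher in mean), 31.0 to 71.6 and 99.2 to 185 for NK cells (6 of 7) and 169 to 472 and 1297 to 2660 for neutrophils (12 of 12). After sham surgery these sums were 10.8 to 137, 55.1 to 193 and 346 to 1411. The sums for B cells, erythroid cells and plasmacytoid dendritic cells overlapped between the MI groups, while that for plasma cells was higher in Foxp3DTR MI libraries. Cd3e and Cd3g were at 0 in at least 1 WT MI library, and Retnlg, Camp, Ltf, Mmp9 and Cxcr2 likewise, Retnlg in all of these. The share of TPM in the 10 most abundant RNAs was 24.8 to 30.3% in WT MI and 17.3 to 23.0% in Foxp3DTR MI libraries. In sorted cells measured in bulk, fewer cells of a type and less RNA per cell cannot be told apart, and the part of these markers in the differences below was not tested.

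Splenic Ly6Chigh monocytes expressed a broad set of TRIM genes, led by those of the chromosome 7 cluster. Of the 42 members, 38 reached 1 TPM in all 10 libraries, and none passed the filter through a single group. Mean scaled TPM was above 100 for 3 members (Trim30a, Trim30d and Trim25), between 20 and 100 for 19, between 5 and 20 for 9 and at most 5 for 11. Trim30a alone made up 22.5 to 27.2% of the family's TPM, and the whole family 0.130 to 0.197% of all TPM. The members lie on 13 chromosomes, with 11 on chromosome 7 and 9 on chromosome 11. Just inside the filter stood Trim46 (4 libraries at 1 TPM or more), Trim43a (3) and Trim69 (3), and just outside it Trim10 (2), Trim43b (1) and Trim50 (1). Of the 24 symbols that failed, Trim29, Trim31, Trim38, Trim52, Trim54, Trim55 and Trim61 were listed at 0 in all libraries, and the other 17 did not exceed 3.06 TPM, the value of the erythroid gene Trim10 in sham library 3.

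**Figure D1:**
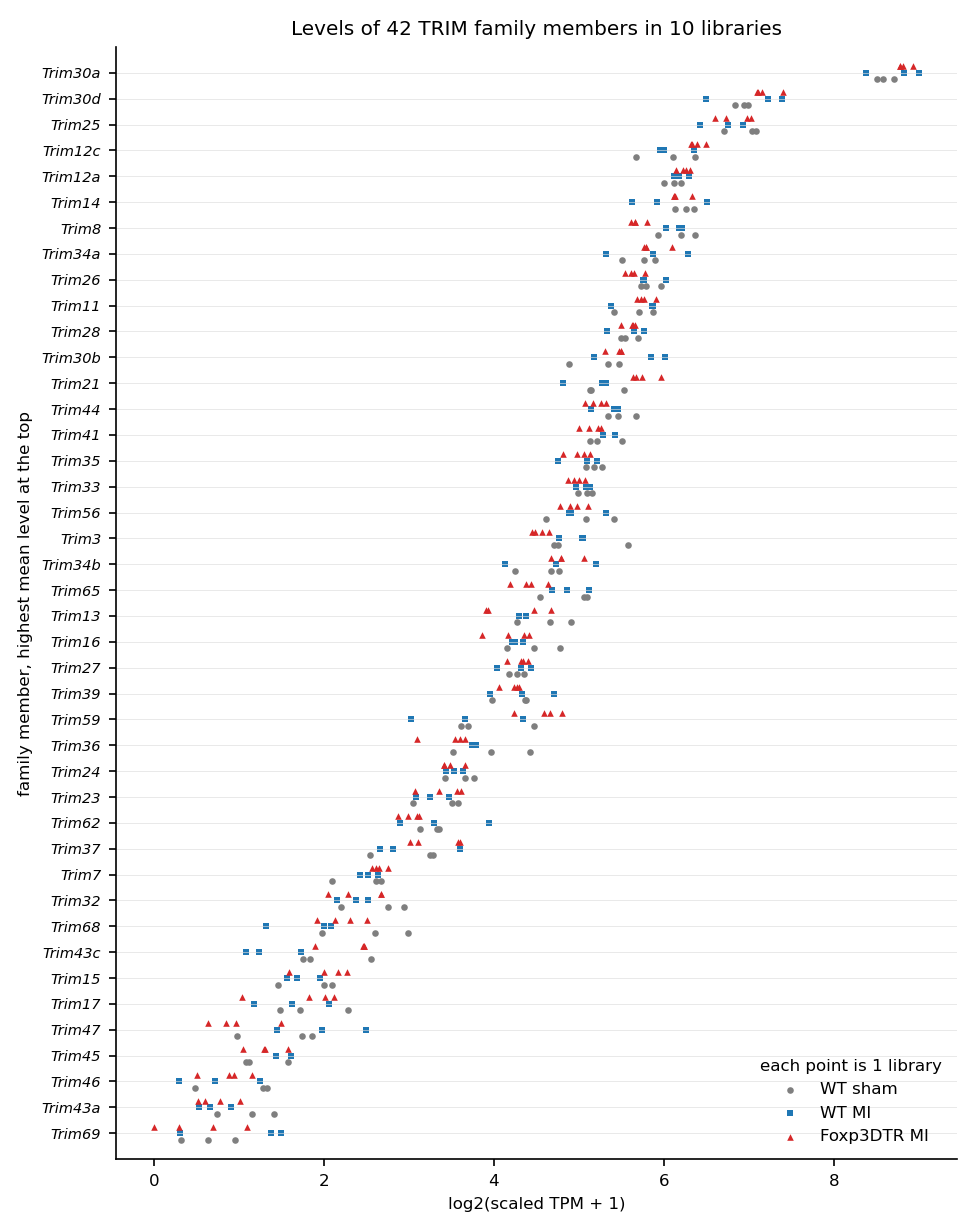
Levels of the 42 members as log2(scaled TPM + 1) on the horizontal axis, 1 row per member in order of the mean and 1 point per library, with WT sham as grey circles, WT MI as blue squares and Foxp3DTR MI as red triangles. Trim30a lies apart at the top, at 332 to 511 scaled TPM, the 3 groups overlap in most rows, and the red triangles of Trim21 lie above and those of Trim8 below all other points of their rows.

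The first question was what Treg depletion did to the family after MI. No member passed the test between Foxp3DTR and WT mice after MI. With limma and adjustment over all 12938 genes, 0 of 42 members had an adjusted p under 0.05, against 145 of all genes (1.12%). That count of all genes rests on single libraries, since it was 0 without WT MI replicate 2, 2 without Foxp3DTR replicate 3, 11 without WT MI replicate 3, 431 without sham replicate 2 and 422 without sham replicate 3, and 19 to 127 without each of the others. The lowest adjusted p in the family was 0.0812 (limma, Trim21). At an unadjusted p under 0.05 there were 6 of 42 members, a share of 14.3% against 17.7% of all genes. These were 3 higher (Trim21, Trim43c and Trim59, against 9.31% of all genes) and 3 lower (Trim8, Trim47 and Trim65, against 8.42%). The scaled TPM of the groups did not overlap in 7 members, against 19.0% of all genes, namely 2 higher (Trim21 and Trim43c, against 9.97%) and 5 lower (Trim3, Trim8, Trim36, Trim41 and Trim65, against 9.02%). This set depended on the scaling. In the deposited TPM 8 members were apart, all of them higher (Trim7, Trim11, Trim12a, Trim21, Trim27, Trim43c, Trim59 and Trim68), against 21.7% of all genes higher and 2.70% lower. The median log2 fold change of the members was 0.03, against 0.00080 over all genes, and 23 were above 0 (50.1% of all genes were) and 19 below. That split depended on the scaling, since 34 were above 0 without it, when the median of all genes moved by 0.22. For 37 of the 42 members the 95% interval of the log2 fold change lay within 1 in either direction, a count that was not taken over all genes. The exceptions were Trim43c, Trim47, Trim59, Trim68 and Trim69, which all had group means of at most 5 scaled TPM except Trim59. The log2(scaled TPM + 1) scale understates changes at low levels. For low members such as Trim43a and Trim46 an interval within 1 therefore does not bound the change in level.

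**Figure D2:**
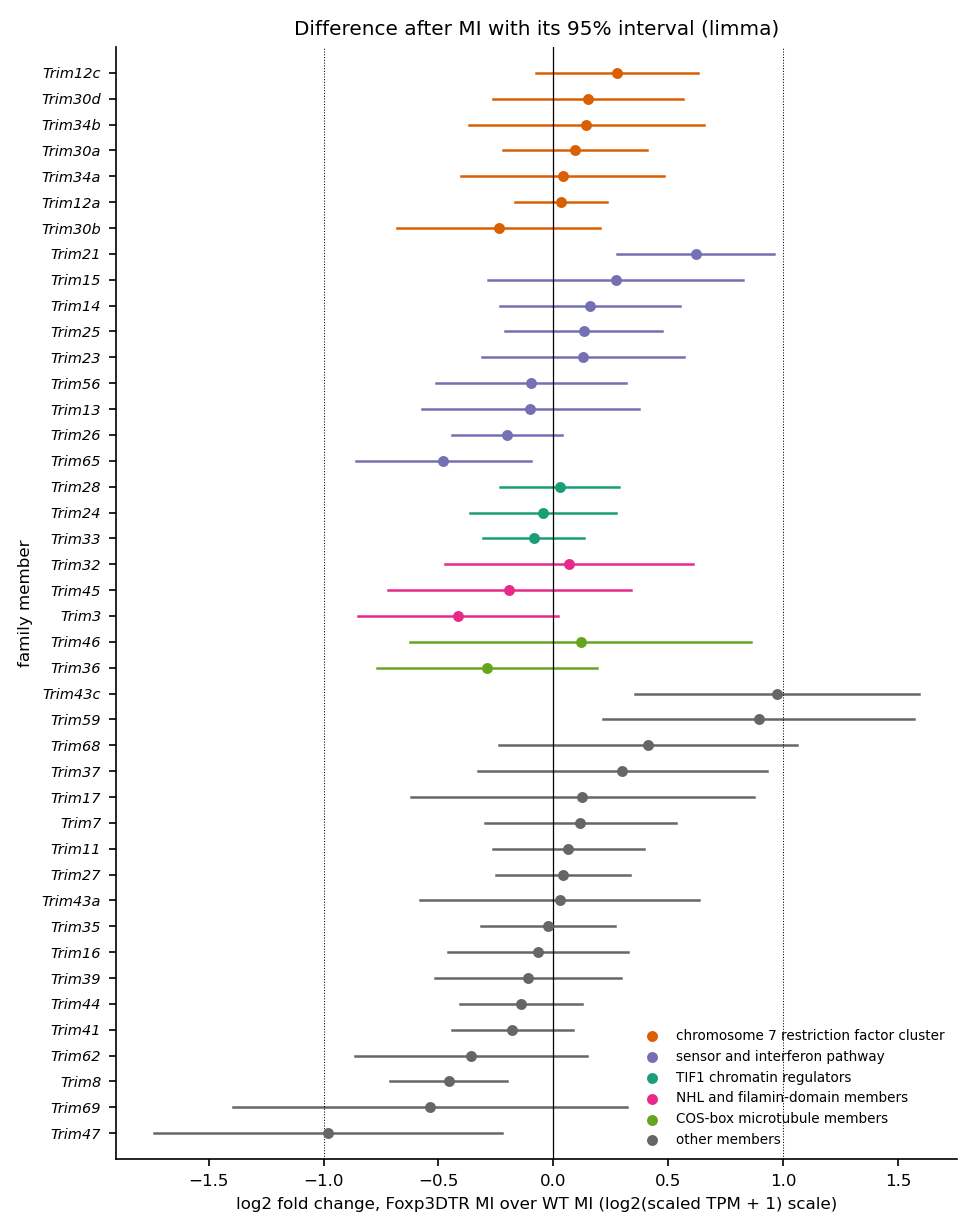
Log2 fold change of Foxp3DTR MI over WT MI libraries for each member, on the log2(scaled TPM + 1) scale, as a point with its 95% interval from limma, coloured by role. The intervals of Trim21, Trim43c and Trim59 lie above 0 and those of Trim8, Trim47 and Trim65 below it, no adjusted p is under 0.05, and dotted lines mark log2 fold changes of -1 and 1.

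The chromosome 7 cluster holds the Trim12, Trim30 and Trim34 genes, relatives of a retroviral restriction factor, and 7 of them were members. Trim30a, whose protein restrains NF-κB signalling by removing TAB2 and TAB3, stood at 416, 362 and 382 scaled TPM after sham surgery (replicates 1 to 3), at 332, 511 and 452 in WT mice after MI (replicates 2 to 4) and at 439, 448, 488 and 440 in Foxp3DTR mice after MI (replicates 1 to 4). The 4 Foxp3DTR values lay within the range of the WT MI libraries and above all sham values. Its log2 fold change between Foxp3DTR and WT mice after MI was 0.09 (95% interval -0.22 to 0.41), and without WT MI replicate 2 it was -0.08.

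Trim30d, its neighbour and close copy, was at 126, 113 and 123 scaled TPM after sham surgery, at 89.0, 168 and 149 in WT mice after MI and at 135, 142, 168 and 137 in Foxp3DTR mice. The pattern over libraries was that of Trim30a, and the log2 fold change after MI was 0.15 (95% interval -0.26 to 0.57). Trim30b was at 43.4, 28.5 and 39.6 scaled TPM after sham surgery, at 35.3, 63.5 and 56.9 in WT mice after MI and at 44.0, 43.4, 44.3 and 38.7 in Foxp3DTR mice. It was the cluster's one member with a log2 fold change below 0 between Foxp3DTR and WT mice after MI, at -0.24 (95% interval -0.68 to 0.20), and without scaling it was at 0.00027.

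Trim12a was at 68.8, 63.3 and 72.7 scaled TPM after sham surgery, at 68.4, 71.7 and 77.8 in WT mice after MI and at 75.9, 69.7, 78.2 and 73.9 in Foxp3DTR mice. Trim12c, whose product acts with TRAF6 in interferon and NF-κB signalling, was at 67.9, 49.8 and 81.3 scaled TPM after sham surgery, at 61.2, 80.8 and 63.3 in WT mice after MI and at 79.4, 82.9, 89.4 and 78.8 in Foxp3DTR mice. Of the cluster it had the highest log2 fold change between Foxp3DTR and WT mice after MI, 0.28 ± 0.16 (SE, limma adjusted p = 0.390), with overlapping groups. Trim12a, by contrast, had a log2 fold change of 0.03 (95% interval -0.17 to 0.23).

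Trim34a was at 53.6, 44.4 and 58.3 scaled TPM after sham surgery, at 38.8, 76.7 and 57.4 in WT mice after MI and at 54.4, 54.4, 67.2 and 53.6 in Foxp3DTR mice. Trim34b was at 24.6, 18.1 and 26.3 scaled TPM after sham surgery, at 16.5, 35.8 and 25.6 in WT mice after MI and at 24.6, 26.6, 32.3 and 26.8 in Foxp3DTR mice. Both therefore spread more among the WT MI libraries than between the groups. Copies of this cluster share sequence, so 59.7% of the 50-base windows of Trim34a transcripts, 56.8% of those of Trim34b, 33.7% of those of Trim12c and 10.5% of those of Trim12a also occur in another gene (GENCODE M21), against 5.98% for Trim30a and 7.49% for Trim30d. Levels of the Trim34 and Trim12 genes are therefore uncertain singly. Trim12a also overlaps an opposite-strand gene, Gm15133, at 11.03 TPM.

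The WT MI libraries differed among themselves at this cluster, a pattern chosen after its values were seen. Replicate 2 was the lowest of the 3 in 7 of 7 cluster members and replicate 3 the highest in 6 of 7, with Trim12a as the exception. Both held for 6 of 7 cluster members, for 5 of 9 sensor members (Trim14, Trim15, Trim21, Trim23 and Trim25), for 16 of all 42 members (38.1%) and for 16.6% of all genes. The median ratio of scaled TPM in replicate 3 to that in replicate 2 was 1.80 in the cluster, 1.35 in the sensor members, 1.03 in the TIF1 genes and 1.00 over all genes. The cluster's summed level was 641, 1007 and 882 scaled TPM in WT MI replicates 2, 3 and 4, but 849 to 968 in the 4 Foxp3DTR libraries and 680 to 801 after sham surgery. In the deposited TPM the Foxp3DTR and sham sums overlapped, at 804 to 1045 and 668 to 833. Replicate 3 was also the deepest of these libraries, at 8.40 M reads against 6.24 M in replicate 2, and the part of depth was not tested.

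**Figure D3:**
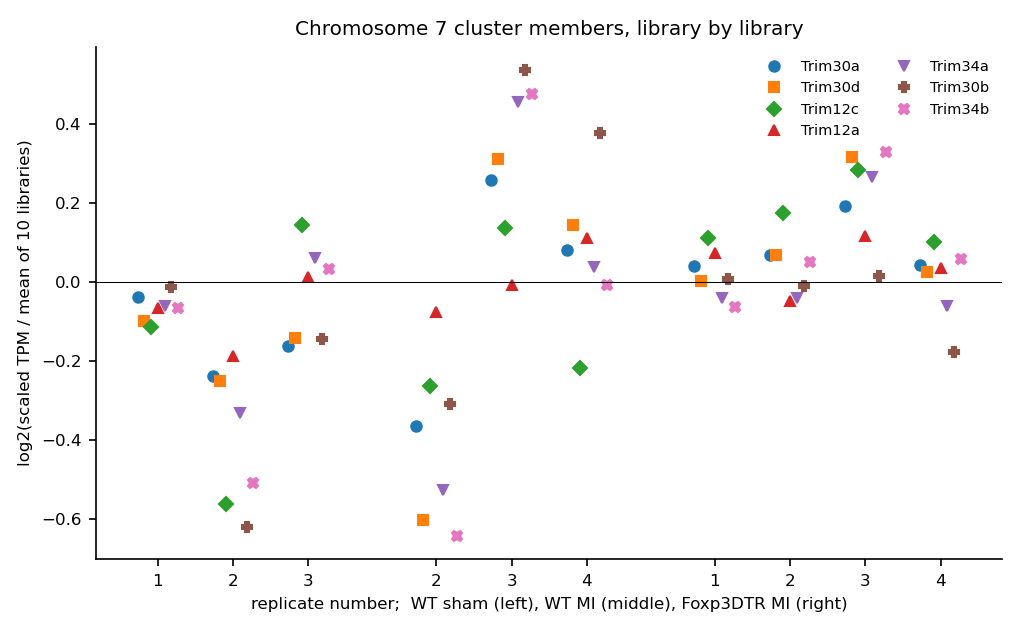
Scaled TPM of the 7 chromosome 7 cluster members in each library, as log2 of the ratio to the member's mean over 10 libraries, with replicate numbers along the horizontal axis and symbols for genes. All 7 symbols lie below 0 in WT MI replicate 2, with 6 of 7 above 0 in replicate 3, and the summed level of the 4 Foxp3DTR libraries ran from 849 to 968 scaled TPM.

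After scaling, members that act on RNA and DNA sensors and on interferon induction did not move as a group. Of 9, 5 had a log2 fold change above 0 and 4 below between Foxp3DTR and WT mice after MI, with a median of 0.13. That split depended on the scaling. Without it Trim13, Trim26 and Trim56 turned above 0, and of the sensor members only Trim65 stayed below, at -0.24. The median of all genes was then at 0.22. Trim21, a cytosolic antibody receptor and E3 ligase that is itself interferon-inducible, was at 33.9, 34.5 and 45.4 scaled TPM after sham surgery, at 27.2, 38.8 and 37.7 in WT mice after MI and at 49.0, 52.5, 61.4 and 50.1 in Foxp3DTR mice. Each Foxp3DTR library lay above each of the 6 WT libraries. The group means were 53.2 ± 5.61 (SD, n = 4), 34.6 ± 6.39 (SD, n = 3) and 37.9 ± 6.45 (SD, n = 3). Against WT mice after MI the log2 fold change was 0.62 ± 0.15 (SE), or 1.54-fold (95% interval 1.21 to 1.95), with a limma adjusted p of 0.0812. The limma adjusted p was 0.0289 without scaling, where 4.07% of all genes passed, and 0.0467 without sham replicate 3, where 3.30% did. In the reported fit 1.12% of all genes passed. Over all alternatives the adjusted p of Trim21 ran from 0.0289 to 0.194. The Trim21 groups after MI were also apart in the deposited TPM, but the Foxp3DTR and sham libraries overlapped there.

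Trim65, a ligase that ubiquitinates the RNA sensor MDA5, had a lower mean instead. It was at 32.4, 33.2 and 22.2 scaled TPM after sham surgery, at 33.7, 28.1 and 24.7 in WT mice after MI and at 23.9, 17.3, 19.7 and 20.8 in Foxp3DTR mice. The Foxp3DTR libraries were below all WT MI libraries by a narrow gap, and they overlapped in the deposited TPM. The log2 fold change was -0.48 ± 0.17 (SE), with a limma adjusted p of 0.192. Trim47, which ends 14.5 kb from Trim65 on the same strand of chromosome 11, was also lower in mean, at 1.72, 2.93 and 4.62 scaled TPM in WT mice after MI and 0.802, 1.83, 0.956 and 0.552 in Foxp3DTR mice. Its groups overlapped, and the log2 fold change of -0.98 ± 0.34 (SE, limma adjusted p = 0.179) rests on few reads.

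Trim25, which activates the RNA sensor RIG-I by ubiquitination, was the most abundant sensor member. It was at 104, 131 and 135 scaled TPM after sham surgery, at 85.0, 121 and 107 in WT mice after MI and at 106, 129, 125 and 96.2 in Foxp3DTR mice. The groups overlapped throughout, with a log2 fold change of 0.13 after MI (95% interval -0.21 to 0.47). Trim14, a member without a RING finger that docks at the mitochondrial adaptor MAVS, was at 81.1, 75.9 and 69.3 scaled TPM after sham surgery, at 48.3, 90.1 and 59.4 in WT mice after MI and at 68.6, 68.8, 79.7 and 68.9 in Foxp3DTR mice. Its WT MI libraries spanned the values of every other library, and 33.9% of its 50-base windows occur in other genes, mostly in the neighbouring Nans. Trim26, which acts on IRF3 and NEMO, had a log2 fold change of -0.20 (95% interval -0.44 to 0.04) that turned to 0.04 without scaling. Of the other sensor members, Trim56, which acts on STING and cGAS, was at -0.10, the ER-anchored Trim13 at -0.10, Trim23, which carries an ARF GTPase domain, at 0.13 and Trim15 at 0.27. Trim13 lies opposite Dleu2, an RNA at 106 TPM, and the sources used here do not say whether strand was used in the counting.

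The 3 chromatin regulators of the TIF1 group differed least of the roles, with a median size of the log2 fold change after MI of 0.04. Trim28 (KAP1), the corepressor of KRAB zinc finger proteins and of endogenous retroviruses, was at 50.9, 45.7 and 44.1 scaled TPM after sham surgery, at 53.4, 39.2 and 49.0 in WT mice after MI and at 48.4, 48.7, 44.3 and 49.8 in Foxp3DTR mice. Trim33 (TIF1γ), a regulator of TGF-β and SMAD signalling, was at 34.5, 33.2 and 30.7 scaled TPM after sham surgery, at 33.0, 34.0 and 30.2 in WT mice after MI and at 29.8, 31.2, 32.7 and 28.4 in Foxp3DTR mice. The groups overlapped for both. With Trim24 (TIF1α) their log2 fold changes after MI were 0.03 (95% interval -0.23 to 0.29), -0.09 (-0.31 to 0.13) and -0.04 (-0.36 to 0.27).

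Among members with NHL repeats or a filamin domain, Trim3, which binds a myosin motor and acts in Toll-like receptor transport, was at 26.0, 46.7 and 25.1 scaled TPM after sham surgery, at 32.0, 31.9 and 26.2 in WT mice after MI and at 24.1, 20.8, 22.8 and 21.3 in Foxp3DTR mice. The Foxp3DTR libraries lay below all 6 WT libraries after scaling but not in the deposited TPM, with a log2 fold change against WT MI of -0.41 ± 0.20 (SE, limma adjusted p = 0.304). Trim32, a ligase of muscle and neural progenitors, was at 6.72, 3.61 and 5.77 scaled TPM after sham surgery, at 4.21, 4.73 and 3.46 in WT mice after MI and at 5.35, 3.15, 5.38 and 3.88 in Foxp3DTR mice, with overlap of all groups.

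The COS-box members, whose products bind microtubules, were low. Trim36 was at 14.7, 20.5 and 10.5 scaled TPM after sham surgery, at 12.5, 12.8 and 12.4 in WT mice after MI and at 11.6, 11.2, 10.6 and 7.53 in Foxp3DTR mice. The Foxp3DTR values lay just under the tight WT MI values, and overlapped them in the deposited TPM, at a log2 fold change of -0.29 ± 0.22 (SE, limma adjusted p = 0.519). Trim46 was at 0.393, 1.43 and 1.51 scaled TPM after sham surgery, at 0.643, 0.226 and 1.37 in WT mice after MI and at 0.415, 0.840, 0.921 and 1.23 in Foxp3DTR mice, where no order of the groups can be read.

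Of the 18 members of other roles, Trim8 stood apart. Its protein is a ligase that ubiquitinates TAK1 and acts against SOCS1 in cytokine signalling. It was at 72.9, 81.7 and 60.1 scaled TPM after sham surgery, at 64.0, 73.5 and 71.4 in WT mice after MI and at 47.8, 49.7, 54.8 and 49.7 in Foxp3DTR mice. The Foxp3DTR libraries all lay below the 6 WT libraries. The group means were 50.5 ± 3.01 (SD, n = 4), 69.6 ± 4.99 (SD, n = 3) and 71.6 ± 10.9 (SD, n = 3). Against WT mice after MI the log2 fold change was -0.45 ± 0.11 (SE), with a limma adjusted p of 0.0836. The limma adjusted p was 0.0308 in a fit of these groups alone, 0.0412 without sham replicate 2 and 0.0365 without sham replicate 3. Of all genes 4.47%, 3.36% and 3.30% passed in these fits, against 1.12% in the reported fit. Without scaling the adjusted p of Trim8 was 0.289, the log2 fold change was -0.22 and the groups overlapped.

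Trim11, the other abundant member of this set, was at 41.6, 57.5 and 51.3 scaled TPM after sham surgery, at 40.7, 57.2 and 57.8 in WT mice after MI and at 53.4, 50.6, 52.2 and 58.9 in Foxp3DTR mice, without an order of groups. Trim59, a membrane-anchored member linked to proliferation, was at 11.2, 11.95 and 21.2 scaled TPM after sham surgery, at 19.3, 11.6 and 7.17 in WT mice after MI and at 23.1, 27.0, 17.8 and 24.2 in Foxp3DTR mice. Its Foxp3DTR and WT MI libraries overlapped after scaling, at 0.89 ± 0.31 (SE, limma adjusted p = 0.171) on the log2 scale. Trim43c, from a family of genes of the early embryo, was at 2.58, 4.89 and 2.36 scaled TPM after sham surgery, at 1.13, 2.31 and 1.35 in WT mice after MI and at 4.54, 4.49, 4.53 and 2.72 in Foxp3DTR mice. All Foxp3DTR values lay above the WT MI values, at 0.97 ± 0.28 (SE, limma adjusted p = 0.114) on the log2 scale, but they overlapped those after sham surgery. Of the 50-base windows of Trim43c, 58.6% occur in other genes, among them Trim43b and the opposite-strand 9330159M07Rik at 3.14 TPM, so this low value cannot be given to Trim43c alone.

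**Figure D4:**
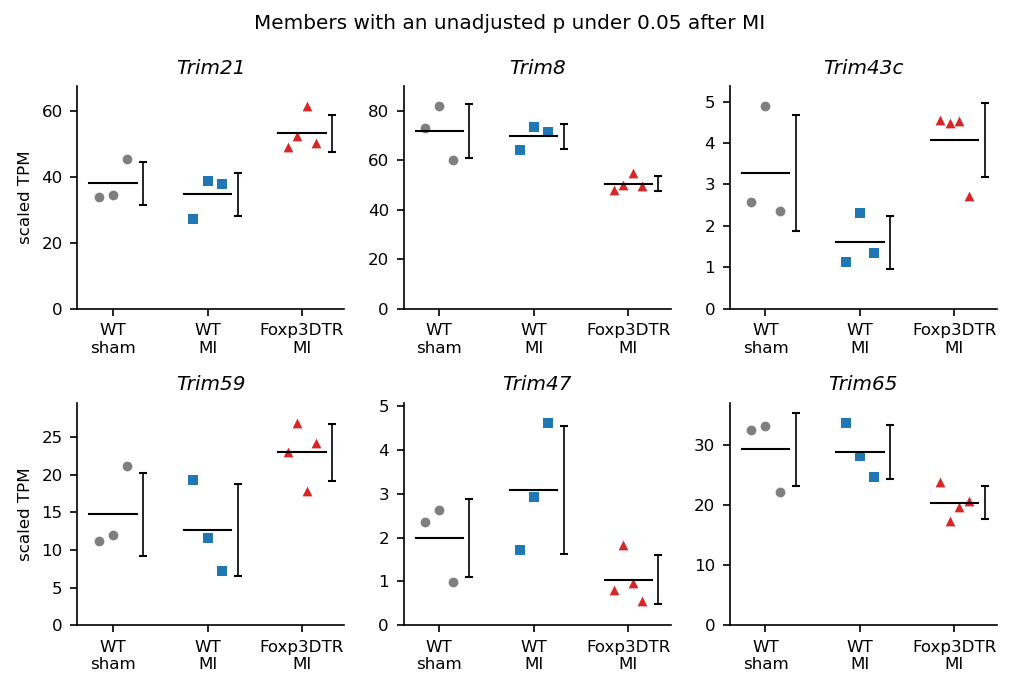
Scaled TPM in each library for the 6 members with an unadjusted p under 0.05 between Foxp3DTR and WT mice after MI, each panel with its own axis from 0, 1 point per library, a horizontal line at the group mean and a bar of 1 SD. Foxp3DTR points of Trim21 and Trim8 lie apart from those of both WT groups, whereas Trim43c and Trim65 are apart only from WT MI, and Trim59 and Trim47 overlap it.

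The second question was whether MI itself changed the family in WT mice. No member passed the test between WT mice after MI and after sham surgery, and no gene of the 12938 did (0%). At an unadjusted p under 0.05 there were 2 of 42 members, both lower, against 600 of all genes (4.64%, and 2.44% for lower). These were Trim43c, with a log2 fold change of -0.70 ± 0.30 (SE), and Trim68, with -0.72 ± 0.31 (SE), both with a limma adjusted p of 0.960. Trim68, first described as a ligase of the androgen receptor, was at 2.94, 6.97 and 5.05 scaled TPM after sham surgery and at 1.50, 2.99 and 3.24 after MI, with overlap. The median of all members was -0.01, with 17 above 0, or 40.5% against 49.6% of all genes. Without scaling 4 of 42 were above 0 and the median was -0.19, beside -0.17 for all genes. The 7 chromosome 7 cluster members all had a log2 fold change above 0, from 0.06 to 0.45, but without scaling only 1 of 7 did, and none had an unadjusted p under 0.05. These 7 share libraries, a locus and in part their sequence, and their common sign is not 7 separate observations. The members with the 95% interval within 1 numbered 35 of 42, again not counted over all genes and with the same limit at low levels.

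Foxp3DTR mice after MI were also set against sham-operated WT mice, a comparison that mixes genotype, toxin, Treg loss and surgery and shares its libraries with the other comparisons. Again 0 of 42 members passed, against 70 of all genes (0.541%), a count that fell to 3 without sham replicate 1, lay between 5 and 9 without sham replicate 2 or any 1 Foxp3DTR library, was 23 to 33 without any 1 WT MI library and reached 636 without sham replicate 3. Of the members, 6 of 42 had an unadjusted p under 0.05, against 18.6% of all genes. The groups did not overlap in 7 members, 3 higher and 4 lower, against 18.2% of all genes, but in the deposited TPM only Trim8 was apart, against 15.3%. Trim8 had a log2 fold change of -0.49 ± 0.11 (SE, limma adjusted p = 0.0893) and Trim21 of 0.49 ± 0.15 (SE, limma adjusted p = 0.148). Without sham replicate 3 the adjusted p of Trim8 was 0.0195 and that of Trim65 0.0492, at log2 fold changes of -0.60 and -0.67. In that fit 636 of 12772 genes passed (4.98%), so that 2 of 41 members is a share like that of all genes. That sham library also had the highest summed T-cell markers of its group, at 137 TPM against 10.8 and 24.0. The same held for NK cells (193 TPM against 55.1 and 67.9) and neutrophils (1411 TPM against 346 and 429). It held for B cells, plasma cells and erythroid cells too, but not for plasmacytoid dendritic cells. Trim65 at -0.49, Trim44 at -0.29, Trim3 at -0.48 and Trim36 at -0.50 made up the rest of the 6. After scaling, though not in the deposited TPM, Trim30a and Trim30d were higher in each Foxp3DTR library than in each sham library, at 0.23 (limma adjusted p = 0.414) and 0.26 (limma adjusted p = 0.473).

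Genes that work with the family were read from lists, between Foxp3DTR and WT mice after MI. The lists were chosen with earlier results of these data known, so their counts beside those of all genes are descriptions only. Of the TRIM proteins with other symbols, 3 were tested and none passed. Mid1, a microtubule-bound ligase of the family, had a log2 fold change of 1.18 (limma adjusted p = 0.0963), Pml, the organiser of nuclear bodies, of 0.42 and Mefv (pyrin) of -0.19. Of 21 E2 enzymes and ubiquitin-like modifiers none passed, against 1.12% of all genes, and 17 were above 0, against 50.1% of all genes. The median of this list was 0.09, and 2 of 21 had an unadjusted p under 0.05, against 17.7% of all genes. Ube2l6, the E2 of ISG15 conjugation, was at 0.62 (limma adjusted p = 0.124) and Ube2n, the E2 that builds lysine-linked signalling chains with many TRIM ligases, at 0.24 (limma adjusted p = 0.179).

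Of 20 tested genes of the RNA and DNA sensor pathway 1 rose and none fell, where 0.688% of all genes rose. It was Tmem173 (STING), the adaptor of cytosolic DNA sensing, at 0.57 ± 0.11 (SE, limma adjusted p = 0.0466). This call held in 2 of the 10 fits that left out 1 library, those without sham replicate 2 and without sham replicate 3, with adjusted p from 0.0293 to 0.119. Zbp1, a sensor of Z-form nucleic acids, followed at 0.88 (limma adjusted p = 0.0721). Tab2, an adaptor of the TAK1 kinase, was at -0.40 (limma adjusted p = 0.126) and Ddx41, a helicase of DNA sensing, at -0.29 (limma adjusted p = 0.236).

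Of 13 interferon receptor, JAK, STAT, IRF and SOCS genes 2 rose and none fell, where 0.688% of all genes rose. These were Socs1, the feedback inhibitor of JAK kinases, at 2.74 ± 0.37 (SE, limma adjusted p = 0.0153), and Jak2 at 0.73 ± 0.08 (SE, limma adjusted p = 0.0151). The Jak2 call was lost without WT MI replicate 2 and without Foxp3DTR replicate 3, with adjusted p of up to 0.0646. That of Socs1 was lost in these fits and without WT MI replicate 3 or Foxp3DTR replicate 2, with adjusted p of up to 0.0667, and its log2 fold change was 2.60 or more throughout. Irf1 was at 1.50 (limma adjusted p = 0.0724). Ifngr1, a chain of the interferon-gamma receptor, was at -0.43 (limma adjusted p = 0.196). Ifngr2, the other chain, was at -0.30 and Irf9 at -0.24, both chosen after their values were seen. Both also had an unadjusted p under 0.05, as did 7 of the 13 in all, against 17.7% of all genes. The median of this list was -0.02, near that of all genes, and 6 of 13 were above 0. The log2 fold change of Trim21, 0.62, was below those of Socs1, Jak2 and Irf1 on the same scale.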

How the data were processed

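RNA of FACS-sorted (CD11b+ Ly6G− F4/80+ Ly6Chigh CD115+) splenic monocytes was sequenced in 10 libraries as 50-base single-end reads. Tools in the submitters' processing notes were STAR 2.5, cutadapt 1.1, CASAVA 1.4 and StringTie 1.3.0, with the build mm10. The authors deposited 1 StringTie table per library, with coverage (a signal, mean read depth over exons), FPKM (fragments per kilobase and 1e+06 fragments) and TPM (per 1e+06 transcripts), none of them counts. Groups came from the sample labels.

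TPM was summed per symbol, and each library was scaled by its median of ratios. The filter kept genes that reached 1 TPM in 3 libraries. Group means on log2(TPM + 1) were fitted in R 4.3.3 (limma 3.58.1, variance trend, all 10 libraries), two-sided, with Benjamini-Hochberg adjustment over 12938 genes. Without scaling the median gene moved by 0.22 (Foxp3DTR MI against WT MI), -0.17 (WT MI against sham) and 0.05 (Foxp3DTR MI against sham). The study's DESeq2 test needs counts and was not repeated. The test was checked on simulated data. With no counts, no counting intervals are given. The quotient of coverage and FPKM gave the depth.

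Members, roles and gene lists were chosen with earlier results of these data known. Values in every library are given for members with an unadjusted p under 0.05 and no overlap of groups after MI or between MI and sham surgery, the 2 most abundant of each role, and the chromosome 7 cluster, and those of Trim47, Trim59 and Trim68 were added after their values were seen. Genes outside the family are those past the test and up to 4 of lowest p per list. Trim5 and Trim30c were not analysed here, and 1 gene was left out of the lists after its values were seen and is not reported here. Markers of B cells, plasma cells, erythroid cells and plasmacytoid dendritic cells were also summed (in WT MI and Foxp3DTR MI libraries 10.6 to 12.4 and 7.41 to 13.6, 318 to 402 and 476 to 577, 5.95 to 8.34 and 8.19 to 30.7, and 142 to 227 and 170 to 218 TPM). Alternatives were quantile normalization, no scaling, a filter at 5 TPM, no filter, pseudocounts of 5 and 0.1, a fit without the variance trend, a fit of the compared groups alone, a replicate block and the removal of each library.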

Additional observations from a re-analysis of the deposited data

Results flagged for a closer look

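In groups of 4 libraries, which here means the Foxp3DTR MI group, a library was marked where its gap to the next value exceeded a set share of the group's range. This held for 4 of 42 members, and chance alone marks about 1 in 20 among separate, normally spread values. The members share these libraries and the rule was not run over all genes, so no excess can be read from the count. For Trim14 the gap was 0.976 of the range, with replicate 3 at 79.7 scaled TPM and the others at 68.6 to 68.9. For Trim34a it was 0.943, with replicate 3 at 67.2 and the others at 53.6 to 54.4 scaled TPM. For Trim30b it was 0.853, with replicate 4 at 38.7 scaled TPM and the others at 43.4 to 44.3. For Trim43c it was 0.97, with replicate 4 at 2.72 scaled TPM and the others at 4.49 to 4.54. Replicate 4 also had the highest share of TPM in its 10 most abundant RNAs within this group, at 23.0%, whose part in these values was not tested.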

How the results depend on the processing

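Between Foxp3DTR and WT mice after MI, 0 members passed in the reported fit, 1 without scaling (Trim21, with 4.07% of all genes), 1 with only the 2 groups compared (Trim8, 4.47%) and 0 to 2 when each library was left out (Trim8 without sham replicate 2, 3.36%, and Trim8 and Trim21 without sham replicate 3, 3.30%). Against sham surgery the count for Foxp3DTR mice was 0 to 2 with a library left out (Trim8 and Trim65 without sham replicate 3, with 4.98% of all genes). Between WT MI and sham surgery it was 0 under every alternative. Without scaling the log2 fold change between Foxp3DTR and WT mice after MI turned above 0 for 11 members, among them Trim26 (0.039), Trim30b (0.00027), Trim33 (0.15), Trim56 (0.14), Trim13 (0.13), Trim24 (0.18) and Trim41 (0.058). With each library left out in turn, values that changed sign ran from -0.083 to 0.23 (Trim30a), -0.12 to 0.33 (Trim30d), -0.0065 to 0.25 (Trim25), -0.0078 to 0.084 (Trim12a), -0.036 to 0.41 (Trim14), -0.21 to 0.27 (Trim34a), -0.14 to 0.40 (Trim34b), -0.10 to 0.12 (Trim28), -0.17 to 0.042 (Trim56), -0.24 to 0.015 (Trim13), -0.10 to 0.0042 (Trim24) and -0.10 to 0.15 (Trim11). The cause of these changes was not tested. Of 737 pairs of a named value and an alternative, 709 kept their direction and their side of the threshold, 21 changed sign and 7 newly passed. With the replicate number as a block, 0 members passed in each of the 3 comparisons, and of all genes 81, 0 and 16 did, against 145, 0 and 70. Same-numbered libraries deviated with correlations of -0.19 to 0.19 over 8 pairs, so the numbers gave no pairing, and the block changed no call of a member. Over all genes, the Foxp3DTR MI against WT MI count was 527 without scaling, 22 without a filter, 578 with only the 2 groups and 74 without the variance trend, and 0 to 431 with a library left out. Depth limits members of under about 5 TPM most, where a value rests on a few reads per kilobase.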
